A study of Mus musculus with 4 samples.

Results

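Cartilage was followed through 8 genes, Snorc, Wif1, Col2a1, Acan, Comp, Cnmd, Matn1 and Matn3, out of 32285 genes counted in spatial transcriptomes of mouse lung. The 8 genes had been listed because earlier readings of the same counts placed them together in 1 section, so their levels and the spots they share are given here as a description, without tests. Lung cryosections came from 4 C57BL/6J mice, 1 section per mouse. The 2 vaped (V) mice, a male and a female, had breathed aerosol of Peach Ice flavored vape juice from JUUL pens by whole-body exposure for 4 h a day, 5 d a week over 9 wk, starting at about 8 wk of age. The 2 non-vaped (NV) mice, again a male and a female, were the controls. Each section lay on a Visium slide, on which spots of 50 µm capture the RNA of the tissue above them, so that a spot is a small region holding several cells. Reads were counted as unique molecular identifiers (UMIs), and levels are given as CPM, the UMIs of a gene per 1000000 UMIs of the section or of the spots named.

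In the mouse, cartilage rings stiffen the trachea and the main bronchi near the hilum, whereas the smaller airways within the lobes and the alveoli have none. Chondrocytes fill their matrix with type II collagen fibrils (Col2a1) and the large proteoglycan aggrecan (Acan), held together by linker glycoproteins such as Comp and the matrilins Matn1 and Matn3. Chondromodulin (Cnmd) is a membrane glycoprotein of chondrocytes that restrains blood vessel growth, Snorc is a small transmembrane proteoglycan of chondrocytes, and Wif1 is a secreted protein that binds Wnt ligands and keeps them from their receptors.

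The sections differed in size and in the tissue they held. The NV male, NV female, V male and V female sections had 842, 473, 1565 and 2053 spots with 9386470, 6957392, 11880468 and 34308556 UMIs. Spots low in markers of the lung parenchyma, under 50% of the level of those markers over all spots, numbered 158, 125, 1 and 433 in the same order. Markers of airway basal cells summed to 4.37, 2.01, 0.758 and 30.2 CPM, those of ciliated cells to 23.5, 12.5, 2.36 and 86.5, and those of heart muscle to 6573, 7015, 18.2 and 3673. The V male section thus held next to no tissue outside the parenchyma, and the basal cell keratin Krt5, named after its values were seen, had 162 UMIs in the V female section and 0 in the other sections. Tissue content and exposure cannot be told apart where they differ between the same sections. Between 277 and 1167 spot barcodes were shared by a pair of sections, since barcodes mark positions on a slide.

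All 8 genes had UMIs in the V female section, with 2342 in sum, against 7 for the other vaped mouse and 29 and 28 for the non-vaped male and female. The plot of levels by section shows 63 to 1163 UMIs in that section for 6 of the genes and 7 each for Matn1 and Matn3.

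**Figure D1:**
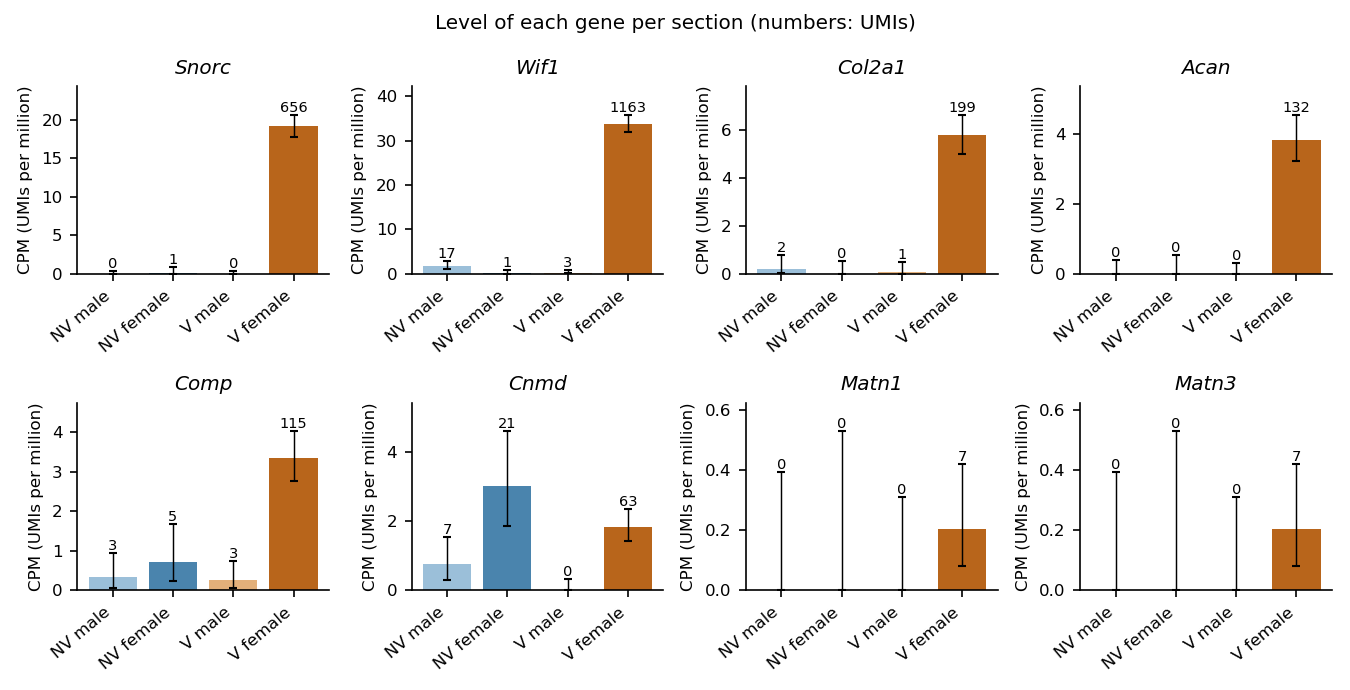
Level of each of the 8 genes in CPM (vertical axis) in the 4 sections (bars), with the UMI count above each bar and exact 95% Poisson intervals as error bars. Snorc, Wif1, Col2a1, Acan and Comp stand highest in the V female section. Cnmd stands highest in the NV female section, at 3.02 against 1.84 CPM in the V female section, with overlapping intervals.

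The promoter windows of Wif1, Acan and Cnmd are shown because these genes differ in where their UMIs lay outside the V female section. In the NV male, NV female and V male sections Wif1 had 17, 1 and 3 UMIs, Cnmd 7, 21 and 0, and Acan 0 in each. The choice was limited to genes with a promoter entry. Sequences are those of RefSeq on GRCm38.p6, where 5 of the 8 genes had an entry (Wif1, Acan, Cnmd, Matn1 and Matn3). Capitals mark matches, on either strand and allowing overlaps, to the SOX-type motifs ACAATG and ACAAAG, the TCF/LEF-type motif CTTTGA, the TATA motif TATAAA and the GC box GGGCGG.
Wif1, chr10:121033754-121034053, plus strand: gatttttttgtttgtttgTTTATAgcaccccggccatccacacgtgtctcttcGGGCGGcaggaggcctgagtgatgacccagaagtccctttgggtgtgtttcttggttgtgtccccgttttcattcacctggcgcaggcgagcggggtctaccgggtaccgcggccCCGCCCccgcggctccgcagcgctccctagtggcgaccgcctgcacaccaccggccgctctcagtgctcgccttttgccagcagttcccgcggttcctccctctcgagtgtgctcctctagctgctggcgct
Acan, chr7:79052976-79053275, plus strand: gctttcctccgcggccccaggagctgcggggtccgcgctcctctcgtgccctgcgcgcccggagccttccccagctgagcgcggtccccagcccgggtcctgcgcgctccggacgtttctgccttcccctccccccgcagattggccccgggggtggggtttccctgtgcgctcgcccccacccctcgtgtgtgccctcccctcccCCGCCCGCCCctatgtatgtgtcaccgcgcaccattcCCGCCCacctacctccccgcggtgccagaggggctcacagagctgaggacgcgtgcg
Cnmd, chr14:79662134-79662433, minus strand: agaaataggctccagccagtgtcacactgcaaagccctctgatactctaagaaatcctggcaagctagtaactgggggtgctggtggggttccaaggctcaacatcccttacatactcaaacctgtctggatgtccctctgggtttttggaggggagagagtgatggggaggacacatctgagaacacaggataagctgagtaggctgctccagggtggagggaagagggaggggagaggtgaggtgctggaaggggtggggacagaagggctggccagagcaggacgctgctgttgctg
The Wif1 window held 1 match to the TATA motif and 2 to the GC box, the Acan window 3 to the GC box and the Cnmd window 0 to any motif. Neither SOX-type motif nor the TCF/LEF-type motif was found in any of the 5 windows. Over all 32851 promoter windows of this length, 12.6% held ACAATG, 18.7% ACAAAG, 16.0% CTTTGA, 13.6% TATAAA and 35.7% GGGCGG. A match to a short motif is a description of the sequence and says nothing of binding.

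Col2a1 lies on the minus strand of chromosome 15 (GRCm38, 97975602 to 98004695). Its UMIs numbered 2 and 0 in the NV male and female and 1 and 199 in the V male and female sections. In the V female section this was 5.80 CPM (95% interval 5.02 to 6.66). That was 13.5-fold the level that a floor of 3 UMIs gives in the NV female section, where the count was 0. Against the other vaped mouse the ratio was 68.9, with a counting interval of 12.2 to 2735. Of its UMIs outside the V female section, 2 came from a non-vaped and 1 from a vaped mouse.

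Acan, on chromosome 7 (79053483 to 79115099), had 0, 0, 0 and 132 UMIs in the NV male, NV female, V male and V female sections. Its 3.85 CPM (3.22 to 4.56) in the V female section were 15.2-fold the level of a floor of 3 UMIs in the V male section. Against the same floor in the NV female section they were 8.92-fold. Apart from the sparse matrilins, Acan was the one gene with no UMI outside the V female section.

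Comp, on chromosome 8 (70373558 to 70382066), codes for a glycoprotein found in tendon as well as cartilage. Its UMIs numbered 3, 5, 3 and 115, or 0.320, 0.719, 0.253 and 3.35 CPM. The V female level was 13.3 times that of the V male section (4.43 to 65.3) and 4.66 times that of the NV female section (1.94 to 14.6). A low level of Comp was thus found in every section, and the 5 UMIs of the NV female section were spread over 5 spots.

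The matrilin genes Matn1 (chromosome 4, 130944385 to 130955475) and Matn3 (chromosome 12, 8947929 to 8972028) had 7 UMIs each, all in the V female section and each in 7 spots. This was 0.204 CPM for each gene, below the level of 0.253 to 0.431 that a floor of 3 UMIs gives in the other sections. A difference of the matrilins between sections was therefore not detectable at this depth.

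Snorc, on chromosome 1 (87470271 to 87475482), had 0 and 1 UMIs in the NV male and female and 0 and 656 UMIs in the V male and female sections. Its level in the V female section was 19.1 CPM (17.7 to 20.6). This was 75.7-fold the level that the UMI floor gives in the V male section, where the count was 0. The V female level was 133 times that of the NV female section, with a counting interval of 23.8 to 5262 for a denominator of 1 UMI. The 1 UMI outside the V female section came from a spot of 33482 UMIs.

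Wif1, on chromosome 10 (121033960 to 121100650), had 17, 1, 3 and 1163 UMIs in the NV male, NV female, V male and V female sections. The levels were 1.81, 0.144, 0.253 and 33.9 CPM. The V female section exceeded the V male section 134-fold (45.8 to 652). Within males the order was the other way, the V male level being 0.139 times the NV male level (0.0262 to 0.482). Vaped and non-vaped sections overlapped for Wif1, as they did for the other genes.

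Cnmd, on the minus strand of chromosome 14 (79637690 to 79662170), did not follow the pattern of the other genes. It had 7, 21, 0 and 63 UMIs in the NV male, NV female, V male and V female sections, or 0.746, 3.02, 0 and 1.84 CPM. The highest level was that of the NV female section, and the ratio of V female to NV female was 0.608 with an interval (0.366 to 1.05) that reaches 1. Of the NV female UMIs, 14 of 21 lay in the 125 spots low in parenchyma markers.

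Summed per mouse over whole sections, 14570 genes were tested between V and NV with edgeR's quasi-likelihood test, and 0 passed, which is 0% of the genes tested. At an unadjusted p under 0.05 there were 248 genes, and DESeq2's Wald test called 8 (0.0549%), Wif1 and Cnmd not among them. Wif1 and Cnmd were the only ones of the 8 genes above the filter on low counts, with log2 fold changes of V over NV of 4.14 and -0.85. These values rest on the V female section: without it they were -2.11 for Wif1 and -7.18 for Cnmd, the latter for a gene with 0 UMIs in the remaining vaped mouse. Without the V male section 21 genes (0.139%) were called, Snorc alone among the 6 of the 8 genes then tested. Without the V female section 811 were called (5.47%), with neither Wif1 nor Cnmd among them. In spots low in parenchyma markers, where the V female section stood alone against both NV sections, 241 of 13170 genes were called (1.83%), with Snorc, Wif1 and Col2a1 among the 6 of the 8 genes tested. Nothing is read from these calls, since the 8 genes were listed for their counts in that section. Of 24 other cartilage genes, 15 were tested and 0 were called, 10 being higher and 5 lower in V with a median log2 fold change of 0.19, where the median over all genes was 0.03. With 2 sections against 2, an exact permutation test of a single value cannot give a two-sided p below 0.333.

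Other genes of cartilage matrix and chondrocytes were followed as well. Col9a1, a chain of the type IX collagen on the surface of type II fibrils, had 0, 0, 0 and 74 UMIs in the NV male, NV female, V male and V female sections. Col11a1, a chain of the type XI collagen within those fibrils, had 0, 1, 0 and 269 UMIs. Chad, a leucine-rich matrix protein of cartilage, had 3, 5, 3 and 968. Sox9, the transcription factor that directs chondrocyte fate and that is also active in some epithelia, had 29, 27, 7 and 312. Of the 23 other cartilage genes with a UMI, 14 had their highest level in the V female section, against 18.6% of the 16292 genes with at least 20 UMIs over the 4 sections. Of the remaining genes, 5 were highest in the V male section, 4 in that of the NV male and 0 in that of the NV female. The 24 genes summed to 290, 252, 355 and 446 CPM in the NV male, NV female, V male and V female sections, with 20, 19, 17 and 23 of them having a UMI, and 82.7 to 90.3% of spots held a UMI of the list in each section. Widely expressed genes are part of this sum: Matn4 and Fgfr3, named after their values were seen, had 200 to 955 and 579 to 2771 UMIs in every section. Cytl1 alone held 5048 of the 15298 UMIs of the list in the V female section. In the NV male, NV female and V male sections it held 319 of 2725, 109 of 1754 and 326 of 4217. The sums without Cytl1 were not computed, so the order of the sections in this sum is not read.

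To ask whether any section held cartilage as tissue, a cartilage spot was defined as one with at least 3 UMIs from at least 2 of Col2a1, Acan, Comp, Cnmd, Matn1 and Matn3, leaving Snorc and Wif1 out. The V female section held 37 such spots, 1.80% of its spots, and the other sections held 0. This count depends on depth and on the definition: 15 spots had at least 5 such UMIs, 24 remained when Comp was not counted, and 0 when every spot was thinned to 3000 UMIs. In the other sections no spot held UMIs of more than 1 of the 8 genes, whereas in the V female section 287 spots held at least 2, 100 at least 3, 35 at least 4 and 1 spot 7 of them.

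The NV sections did hold spots low in parenchyma markers, and their UMIs are set beside the V female level as a description only. At the level of the V female spots low in parenchyma markers, the corresponding spots of the NV male and NV female sections would hold 47.5 and 69.7 UMIs of Snorc, and 0 were found in each. For Wif1 the same figures were 100 and 147 UMIs, where 4 and 1 were found. For Cnmd they were 5.70 and 8.36 UMIs, where 3 and 14 were found. Which structures these spots covered differs between sections, and its part in these values was not tested. The 8 genes were listed for their counts in the V female section, so nothing is read from lower counts elsewhere.

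Of the 37 cartilage spots, 29 were low in parenchyma markers, and their median depth of 35896 UMIs was above the 11031.5 UMIs of the other spots of the section. The spot with the most such UMIs had 49917 UMIs in all, with 24 of Col2a1, 12 of Acan, 5 of Comp and 5 of Cnmd. The same spot held 50 UMIs of Snorc and 46 of Wif1, the most that any spot had of either gene. The spot next in rank held 15 UMIs of Snorc and 23 of Wif1 with 5 of Col2a1 and 6 of Acan.

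Snorc, which had no part in choosing the spots, reached 118 CPM in cartilage spots and 14.5 in the other spots of the section, a ratio of 8.13 (6.81 to 9.68). Wif1 reached 243 against 24.2 CPM, a ratio of 10.0 (8.84 to 11.4). Against only those other spots that were also low in parenchyma markers, with a median depth of 32667.5 UMIs, the ratios were 6.67 for Snorc (5.48 to 8.11) and 7.55 for Wif1 (6.57 to 8.68). Without the richest spot they were 6.06 and 9.08 against all other spots. These intervals cover counting error only, neighboring spots are not independent, and the values describe 1 section of 1 mouse.

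For each matrix gene the spots were chosen anew by the remaining genes of the definition. Col2a1 was then 16.1 times as high in the spots chosen as in the rest (11.4 to 22.4), Cnmd 11.9 times (6.47 to 20.9), Acan 11.7 times (7.78 to 17.3) and Comp 7.53 times (4.46 to 12.2). The order of these ratios cannot be read further, since the intervals of neighbors in it overlap. Matn1 and Matn3 had 2 of their 7 UMIs each in such spots. The richest spot weighs on these ratios, as it held 24 of the 49 Col2a1 UMIs in the spots chosen for that gene. For Acan it held 12 of 37 UMIs, for Comp 5 of 21 and for Cnmd 5 of 18. Ratios of these genes without that spot were not computed.

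In the V female section 18.8% of spots had a UMI of Snorc (17.1 to 20.6%), 24.3% of Wif1 (22.5 to 26.2%), 6.92% of Col2a1, 5.02% of Acan, 4.82% of Comp and 2.34% of Cnmd. Elsewhere a share is given only where a section held at least 10 UMIs, which were Wif1 in the NV male section with 1.43% of spots and Cnmd in the NV female section with 2.75%. In V female spots that were not low in parenchyma markers, 12.4% had a UMI of Snorc and 17.7% of Wif1, against 42.7% and 49.2% of the spots low in them, at median depths of 9046 and 33012 UMIs. Depth moves with these shares, as spots with a UMI of Snorc had a median of 24267 UMIs and those without 9613. Thinned to 3000 UMIs per spot, with 224 shallower spots left out, 4.43% of V female spots had a UMI of Snorc and 6.89% of Wif1.

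The genes shared spots of the V female section in part. Of the 841 spots with a UMI of any of the 8 genes, 554 held 1 of them only and 287 held more. For the 15 pairs among the genes other than Matn1 and Matn3, the share of spots with one gene was 2.44 to 9.61 times as high where the other was found as where it was not. Snorc and Wif1 shared 180 spots, which was 46.6% of the spots with Snorc and 36.1% of those with Wif1. Cnmd and Wif1 shared 31 spots, 64.6% of the spots with Cnmd. After thinning to 3000 UMIs, 11 of the 15 pairs had a ratio above 1 and the other 4 shared 0 spots. Over 2053 spots the correlation of log-scaled levels was between 0.10 and 0.30 for the 15 pairs. These spots share a library and differ in depth.

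**Figure D2:**
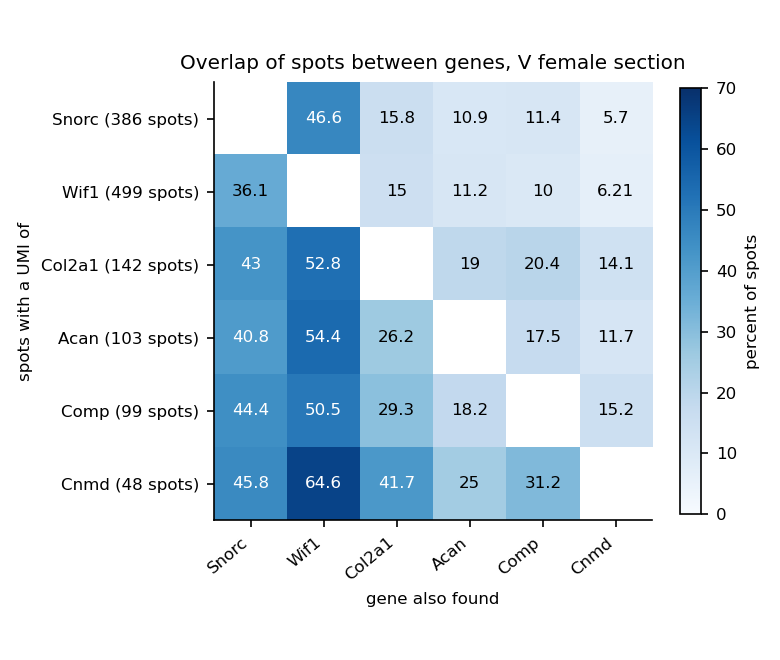
Share (percent, color) of the V female spots with a UMI of the gene named on the vertical axis that also had a UMI of the gene on the horizontal axis. Among the 6 genes plotted, without the sparse matrilins, Wif1 was found in 46.6 to 64.6% of the spots of each other gene, and Cnmd in 5.70 to 15.2%.

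The level of Snorc and Wif1 followed the number of defining UMIs in a spot. Spots with 0, 1, 2 and at least 3 defining UMIs had 13.4, 17.3, 23.3 and 113 CPM of Snorc. For Wif1 the levels were 20.2, 28.3, 82.1 and 233 CPM. Depth followed the same order, with medians of 9785.5, 24237, 33672 and 35896 UMIs, although the levels are already per UMI of the spots.

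**Figure D3:**
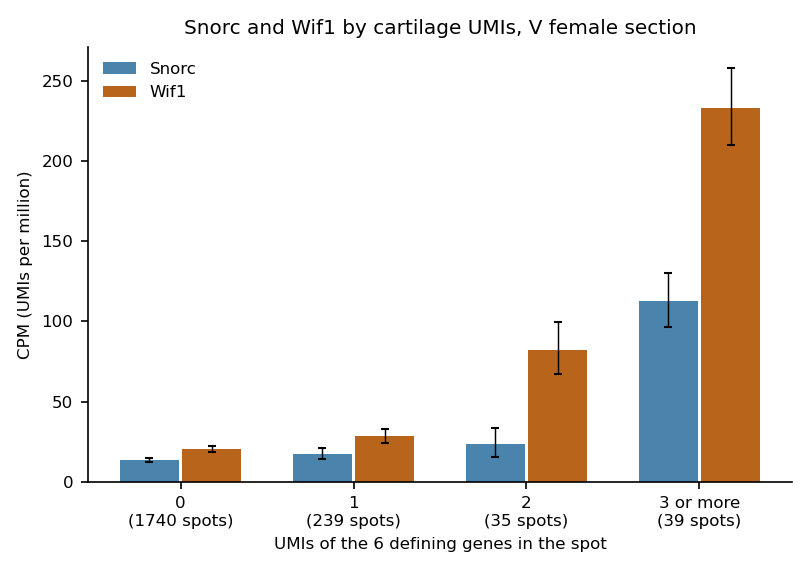
Level of Snorc and Wif1 (CPM, vertical axis) in V female spots grouped by their UMIs of the 6 defining genes (horizontal axis), with exact 95% Poisson intervals. Both genes are highest in the 39 spots with 3 or more such UMIs, at 113 and 233 CPM.

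A large part of both genes lay outside cartilage spots. The 37 spots held 27.3% of the Snorc and 31.6% of the Wif1 UMIs of the section, while spots with 0 defining UMIs held 50.8% and 43.2%. The proportions of the genes are given per kind of spot without intervals, so differences between them are not read. The richest spot weighs on them, with 50 of the 179 Snorc and 46 of the 368 Wif1 UMIs of the cartilage spots. Per 100 UMIs of Snorc there were 206 of Wif1 and 45.3 of Col2a1 in cartilage spots, 182 and 25.8 in the other spots low in parenchyma markers, and 149 and 23.5 in the 1612 remaining spots, where the level of Snorc was 12.0 CPM at a median depth of 8963 UMIs. Col2a1, Acan, Comp and Cnmd helped to choose the cartilage spots, so their proportions there are raised by the choice. The 1612 remaining spots also held 52 UMIs of Col2a1 and 42 of Acan. Club, mucous and heart muscle markers had a UMI in 99.9, 99.7 and 98.4% of V female spots, ciliated and basal markers in 41.9 and 22.5%. Whether UMIs outside cartilage spots came from cells under those spots was not tested.

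Cartilage spots also carried airway markers, as the plot of ratios shows. Markers of basal cells were 4.32 times as high as in other spots of the section (3.64 to 5.09), those of mucous cells and glands 3.52 times (3.49 to 3.56), of ciliated cells 3.38 times (3.03 to 3.75) and of club cells 2.21 times (2.19 to 2.23). Bpifa1 alone held 256141 of the 282726 UMIs of the mucous and gland list in this section, so the ratios of that list mostly reflect 1 gene. Parenchyma markers were at 0.468 times the level of all other spots, but at 1.52 times that of other spots low in them. Against other spots low in parenchyma markers the ratios were 2.84 for basal, 2.29 for mucous, 2.17 for ciliated and 1.67 for club markers. Fibroblast markers stood at 1.85 times the level of other spots, smooth muscle markers at 1.28 and heart muscle markers at 1.27, which became 1.49, 0.983 and 0.770 when only spots low in parenchyma markers were compared.

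**Figure D4:**
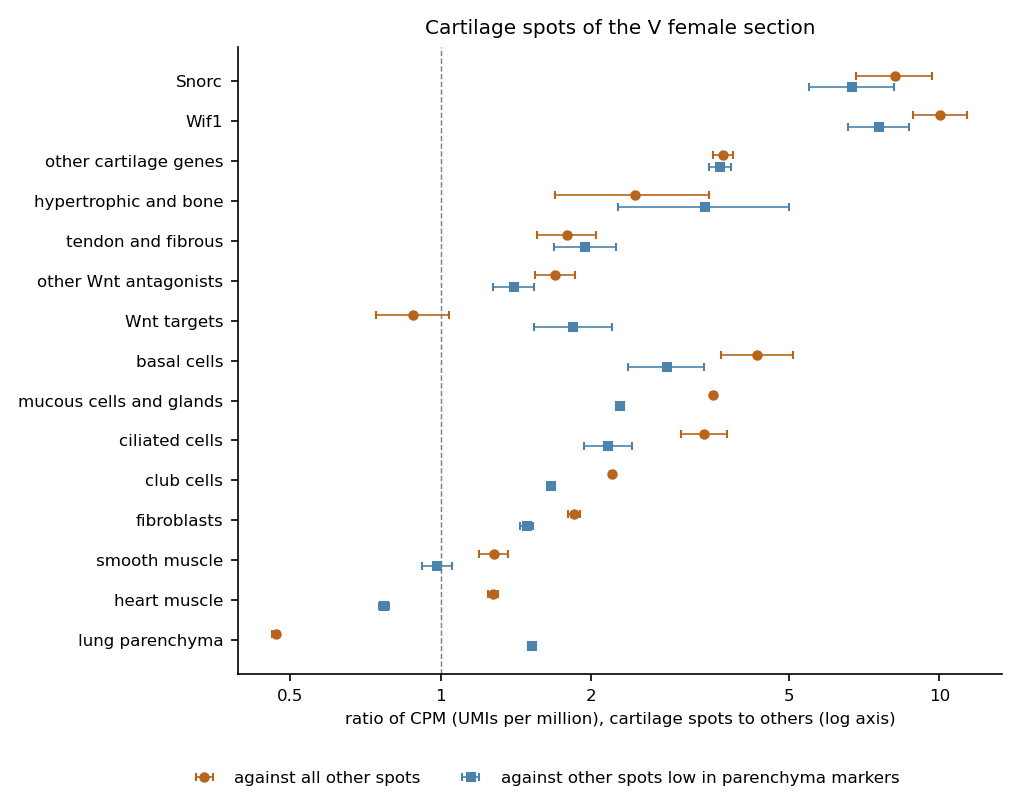
Ratio of CPM in the 37 cartilage spots to other spots of the V female section (horizontal log axis) for Snorc, Wif1 and summed marker lists, against all other spots (circles) and against other spots low in parenchyma markers (squares), with 95% counting intervals. Snorc and Wif1 have the highest ratios, at 8.13 and 10.0, and parenchyma markers are at 0.468 against all other spots and at 1.52 against those low in them.

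The 24 other cartilage genes, which did not define the spots, summed to 1469 CPM in cartilage spots and 399 in other spots, a ratio of 3.68 (3.52 to 3.85). Cytl1 alone held 1074 of the 2222 UMIs of this list in cartilage spots and 3974 of the 13076 in other spots. The ratio of the list without Cytl1 was not computed. Of the 23 with a UMI, 20 were higher in cartilage spots. The exceptions were Matn4 with a ratio of 0.416, Papss2 with 0.992 and Scrg1 with 0 of its 18 UMIs there. Among genes with at least 20 UMIs on the lists of other cartilage, hypertrophic cartilage and bone, tendon and Wnt antagonist genes, the highest ratios were those of Col9a1 at 11.7 (26 of 74 UMIs), Sox9 at 8.12 (85 of 312), Chad at 7.51 (249 of 968), Frzb at 7.23 (19 of 76) and Col11a1 at 7.19 (67 of 269).

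Frzb codes for a secreted Wnt antagonist of articular cartilage. The list of 8 Wnt antagonists besides Wif1, Frzb among them, stood at 1.70 times the level of other spots (1.54 to 1.86) with Dkk3 at 1.93, Sfrp1, Sfrp2, Sfrp4 and Sfrp5 between 0.969 and 1.14, and Dkk2 with 0 of its 16 UMIs in cartilage spots. These antagonists other than Frzb were named after their values were seen. Wnt target genes were at 0.882 times (0.743 to 1.04) the level of all other spots and at 1.85 times (1.54 to 2.20) that of other spots low in parenchyma markers, so that their direction depended on the spots compared.

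Genes of hypertrophic cartilage and bone were sparse, with 37 UMIs in cartilage spots and a ratio of 2.45 (1.70 to 3.45). Genes of tendon and fibrous tissue stood at 1.79 times the level of other spots (1.56 to 2.05), with 5 of 8 higher.

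Among 13976 genes with at least 50 UMIs in the V female section, those most like the summed cartilage genes over its 2053 spots were Sox9 (Pearson's r of 0.32 for log-scaled levels), Myoc (0.31), Bpifa1 (0.28), Chad (0.26), Cyp2f2 (0.26), Cytl1 (0.25), Dcn, Scgb3a2, Ecrg4 and Scgb3a1 (0.23 to 0.22). Sox9, Chad and Cytl1 are cartilage genes and Dcn codes for a proteoglycan of connective tissue, whereas Bpifa1, Cyp2f2, Scgb3a2 and Scgb3a1 are genes of the airway epithelium. For Snorc the closest genes were Myoc (0.30), Chad, Bpifa1, Cytl1 and Sox9 (0.24), and for Wif1 they were Bpifa1 (0.40), Myoc, Chad, Sox9 and Cyp2f2 (0.33). All points come from 1 library and differ in depth, and ranks changed with the measure: 3 of the 10 genes named for the summed cartilage genes stayed among the first 10 by Spearman's rho, 4 after thinning and 6 within spots low in parenchyma markers.

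Outside the V female section, the spots with Wif1 could be described in the male sections. In the NV male section its 17 UMIs were in 12 spots, in which club cell markers reached 184302 CPM against 8801 in the other spots, a ratio of 20.9 (20.7 to 21.2). Ciliated cell markers were 23.5 times as high in these spots (17.6 to 31.1), whereas markers of mucous cells and glands were at 0.341 times the level elsewhere (0.191 to 0.564), and basal cell markers had 1 UMI in them. Other cartilage genes were at 1.01 times the level elsewhere (0.778 to 1.29). Of the mucous and gland UMIs of the whole NV male section, Bpifa1 held 1478 of 1833. The 3 spots with Wif1 in the V male section did not share these markers: club cell markers were at 0.882 times the level of the other spots (0.440 to 1.58), and ciliated and basal cell markers had 0 UMIs in them. A class of spots with at least 3 UMIs of ciliated cell markers and 0 of the defining genes was added after the values had been seen. It numbered 10 spots in the NV male section and 0 in the V male section. The 10 NV male spots held 6 of the 17 Wif1 UMIs of their section, 24.2 CPM against 0.806 in spots with 0 UMIs of both. In the V female section 98 spots of this class had 31.9 CPM of Wif1 against 17.1, a ratio of 1.86 (1.47 to 2.36). Snorc was at 18.9 against 11.7 CPM there, a ratio of 1.61 (1.19 to 2.18), and had 0 UMIs in the NV male section. The V female ratios also move with depth, the medians being 31375 and 7407 UMIs.

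Cnmd in the NV sections lay in yet other spots. The 13 spots with its 21 UMIs in the NV female section had 2931 CPM of fibroblast markers against 1938 in the other spots, 12905 of parenchyma markers against 22122 and 1007 of club cell markers against 2423. Other cartilage genes were at 159 CPM in them, below the 258 of the other spots. The 5 spots with Cnmd in the NV male section had 2971 CPM of fibroblast markers against 1641, with club cell markers at 4828 against 13022. Mesothelium markers in these 5 spots were at 3.87 times the level elsewhere (2.78 to 5.24), and at 1.10 times in the NV female spots (0.902 to 1.33). Of the airway markers, those of club cells were lower in the spots with Cnmd of both NV sections, whereas the intervals for mucous (0.407 to 1.05) and ciliated cell markers (0.0473 to 1.48) reached 1 in the NV female section. No spot there held another of the 8 genes. Fewer cells of a type and less RNA per cell cannot be told apart in any of these comparisons.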

How the data were processed

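Lung sections of 2 V and 2 NV mice, 1 section per mouse, were profiled on Visium slides. Per the study's methods, the authors processed reads with SpaceRanger 1.2.2 against the mm10 reference of 10x Genomics and deposited raw counts, the UMIs of every gene in every spot. The normalization with Seurat 4.0.3 that the methods describe was not part of these counts, and all 4933 spots were used. The 8 genes and all gene lists were chosen with earlier results of these data known.

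Counts were read in Python 3.11.15 (numpy 2.4.6, scipy 1.17.1, pandas 2.3.3). Levels of a section were scaled to its total UMIs. Intervals are exact 95% Poisson or binomial intervals, ratios have exact conditional 95% intervals, all cover counting error only, and a count of 0 was set to a floor of 3 UMIs per section. Folds against this floor have no interval and are not lower bounds, since the upper 95% limit of a count of 0 was 3.69 UMIs. Thinning drew 3000 UMIs per spot without replacement and left out shallower spots. Likeness was Pearson's r of log-scaled UMIs per 10000, for genes with at least 50 UMIs.

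UMIs were summed per mouse and fitted in R 4.3.3 with edgeR 4.0.16, using TMM scaling, filterByExpr and the quasi-likelihood test. A call needed an adjusted p (Benjamini-Hochberg) under 0.05 together with a log2 fold change beyond 0.25. The fit was tested on simulated data, and its common biological coefficient of variation was 0.394. The spot-level Wilcoxon test of the study's methods was not used, since spots of a section are not replicates, and nothing states that sections were more than 1 per mouse, so the spread is that between mice. DESeq2 1.42.0, other filters, other definitions and left-out mice were alternatives.

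Genes named were the 8 genes, the called genes and the 5 with the highest ratio in cartilage spots among lists of cartilage, hypertrophic cartilage and bone, tendon, and Wnt antagonists (at least 20 UMIs), and the genes most like the cartilage sum (10), Snorc and Wif1 (5 each). Others are marked where they occur. Coordinates are from GENCODE vM21 on GRCm38.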

Additional observations from a re-analysis of the deposited data

Results flagged for a closer look

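Of the 8 genes, only Wif1, Col2a1, Comp and Cnmd had at least 3 UMIs in each sex. The difference between V and NV had opposite signs in males and females for 3 of them. For Wif1 it was -1.56 CPM in males and 33.8 in females, for Col2a1 -0.13 and 5.80, and for Comp -0.067 and 2.63. Cnmd was lower in V in both sexes, with 0 against 0.746 CPM in males and 1.84 against 3.02 in females. Each sex had 1 V and 1 NV section, so the difference between the sexes was not tested, and the male differences for Col2a1 and Comp rest on 3 and 6 UMIs.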

How the results depend on the processing

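Of the gene counts, 0 called between V and NV became 8 with DESeq2's Wald test (0.0549% of genes) and 241 (1.83%, with 4 other cartilage genes: Chad, Col11a1, Cytl1 and Col27a1, and Snorc, Wif1 and Col2a1 among the 8 genes) in spots low in parenchyma markers, where V was the V female alone against 2 NV mice. Leaving out 1 mouse gave 0 to 811 called genes and 0 to 1 other cartilage genes: 21 genes (0.139%) without the V male, Snorc and Chad among them, and 811 (5.47%) without the V female, where Cilp2 was lower. In these fits the lone sample is assumed to vary like the other group. The log2 fold change of Wif1 lay between -2.11 (V female left out) and 6.89 (NV male left out) and that of Cnmd between -7.18 (V female left out) and 0.43 (NV female left out), with 0.08 when the V male was left out. Replicate numbers follow sex and name no shared batch. With a replicate block 0 genes were called (413 at an unadjusted p under 0.05), and same-numbered samples deviated together with a correlation of 0.32. TMM scaling gave Wif1 36.4 CPM in the V female section. Counting spots with 1 UMI of any defining gene gave 10, 18, 4 and 313 spots in the NV male, NV female, V male and V female sections. The V female count of 37 was 15 at 5 UMIs, 24 without Comp and 0 after thinning. Shares of V female spots thinned to 1000, 3000 and 5000 UMIs and at 2 or more UMIs were 1.74, 4.43, 7.29 and 4.68% for Snorc, 3.09, 6.89, 10.5 and 7.89% for Wif1, 0.548, 1.80, 1.94 and 1.22% for Col2a1, 0.498, 0.984, 1.52 and 0.585% for Acan, 0.398, 1.04, 1.58 and 0.487% for Comp, and 0.149, 0.601, 0.546 and 0.487% for Cnmd. For Cnmd in the NV female section they were 0.440, 1.19, 1.04 and 1.06%, and for Wif1 in the NV male section 0.123% at 1000 UMIs and 0.356% at 2 or more. Ratios in cartilage spots of at least 5 UMIs were 15.2 for Snorc, 18.9 for Wif1, 6.45 for other cartilage genes, 6.15 for basal, 4.53 for ciliated, 4.89 for mucous, 3.09 for club, 2.23 for fibroblast, 0.515 for parenchyma, 2.83 for tendon and 4.02 for bone lists, and turned for heart muscle (0.598) and Wnt targets (1.24). Without Comp in the definition they were 10.3, 12.1 and 4.25 for the former 3, 3.88 for mucous, 2.51 for club, 1.92 for fibroblast, 1.15 for smooth muscle, 0.518 for parenchyma and 0.875 for heart muscle markers. Against other spots low in parenchyma markers they were 6.67 for Snorc, 7.55 for Wif1, 2.84 for basal, 2.17 for ciliated, 2.29 for mucous, 1.67 for club, 1.49 for fibroblast and 1.40 for Wnt antagonist lists, and turned for smooth muscle (0.983), heart muscle (0.770), parenchyma (1.52) and Wnt targets (1.85). Without the richest spot, an alternative added after the data were seen, they were 6.06 for Snorc, 3.26 for other cartilage genes, 3.60 for mucous, 2.25 for club and 0.459 for parenchyma lists. Thinned spots gave no ratio, since 0 cartilage spots were left. Of the 10 genes most like the cartilage sum, 3 were kept with Spearman's rho, 4 after thinning and 6 in spots low in parenchyma markers, also added later. Of the 5 for Snorc, 1 and 3 were kept by the former 2 measures, and of those for Wif1, 1 and 2. The cause of these changes was not tested. All values on cartilage spots rest on 1 section of 1 mouse, and spots with single genes in the other sections were few (3 to 13 where described).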
